A study of Mus musculus with 2 samples.

Results

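The regions described here were the autosomal peaks of a Pax7 ChIP-seq list that had a high pileup, meaning many immunoprecipitated DNA fragments stacked over the summit. They were chosen by the pileup itself, with a lower limit of 20 and an upper limit of 60 fragments. Of the 2958 peaks on chromosomes 1 to 19, 490 met both limits (16.6%), and 2450 had a pileup under 20. A further 18 autosomal peaks lay above 60, and 19 of the 2977 deposited peaks lay elsewhere, 17 on the X chromosome and 2 on scaffolds.

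Chromatin came from muscle stem cells isolated by fluorescence-activated sorting from untreated C57BL/6 mice of the genotype Pax7-YFP KI, a knock-in of yellow fluorescent protein. A single library was made from DNA recovered with an antibody to green fluorescent protein (labelled GFP), and a single library from input DNA of like cells and genotype. The labels do not say how the fluorescent protein is joined to PAX7, nor how many mice were pooled, and a precipitation from cells without the tag was not analysed here. The ChIP library held 10622111 tags and the input 20429667 after filtering by the authors. With 1 library per group no value had a replicate, peaks of a library are not replicates of each other, and every interval below covers counting error only.

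PAX7 is a transcription factor of the paired box family. It carries a DNA-binding paired domain and a homeodomain, each of which recognises its own kind of DNA site. In skeletal muscle it marks the satellite cells, the stem cells that lie beneath the basal lamina of the muscle fibre and rebuild fibres after injury. The paired domain of this family binds sites with the core letters GTCACGC, while homeodomains bind sites around the letters TAAT.

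The sequences below show the paired domain core in promoters that a high-pileup peak summit fell into. They were read from RefSeq promoter sequences of GRCm38.p6, in which each window runs from 250 bases before to 50 bases after an annotated start site. Each has 10 bases on either side of the core, is written 5′ to 3′ on the strand that carries the core, and has the core in capitals. They are in order of pileup, from 33 fragments at Spsb1 to 23 at Cap1, and were limited to cores upstream of the start sites named. Cores just downstream of a start, such as those at Mphosph8 (34 fragments) and Cryz (28 fragments), were left out.
Spsb1, nearer to the start, chr4:149955123-149955149, plus strand: cacgccccatGTCACGCtccttcacca
Spsb1, farther from the start, chr4:149955153-149955179, plus strand: cccgcctcagGTCACGCcctttttatc
Rabl3 and Gtf2e1, chr16:37539800-37539826, plus strand: ctttcgatcaGTCACGCtctgaccgac
Lsm11, chr11:45945090-45945116, minus strand: gcctgagcagGTCACGCctctcagcac
Plekhf1, chr7:38228023-38228049, plus strand: caattctctgGTCACGCcccttcgagg
Swi5 and Golga2, chr2:32288189-32288215, plus strand: gagaaggtagGTCACGCtgggtttccg
Ipo5, chr14:120910964-120910990, minus strand: acgccgattgGTCACGCaccctgcggt
Cdc37l1, chr19:28990310-28990336, plus strand: gccacgcccgGTCACGCccccggaaat
Pwwp3a, chr10:80226525-80226551, minus strand: cagcccatcgGTCACGCcctccaccgc
Gtf2f2, chr14:76010989-76011015, minus strand: gttgccgggaGTCACGCccatctagga
Cap1, chr4:122886108-122886134, plus strand: tccacggttgGTCACGCcccgaggccc

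Spsb1, which encodes a substrate receptor of a ubiquitin ligase, was the promoter with 2 cores. Its peak at chr4:149954993-149955308 had 33 ChIP fragments over a local background of 0.977. The local background comes from the input scaled to the ChIP depth, but 0.977 is the lowest value the caller allows. That value is the mean ChIP coverage over the genome, not an input signal measured at the peak. The fold enrichment, which is the pileup plus 1 over the background plus 1, was 17.2 (12 to 23.9, exact Poisson 95% interval of the pileup). The summit lay 135 bp upstream of the annotated start site, 5 bp from one core and 25 bp from the other. The 250 bases upstream of the start site are shown on the strand of the gene, where the core reads as its reverse complement GCGTGAC in capitals.
Spsb1 promoter, chr4:149955007-149955256, minus strand: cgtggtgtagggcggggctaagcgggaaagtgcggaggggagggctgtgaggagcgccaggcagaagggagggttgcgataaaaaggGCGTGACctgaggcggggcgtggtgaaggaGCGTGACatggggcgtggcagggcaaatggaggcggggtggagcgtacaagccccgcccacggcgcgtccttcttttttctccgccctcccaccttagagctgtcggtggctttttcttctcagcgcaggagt

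Nhlrc1, an intronless gene for the ubiquitin ligase malin, had the strongest peak at a gene end and no core in its start-site window. The peak at chr13:47014637-47015109 had 37 fragments over a background of 0.977, 19.2-fold (13.7 to 26.3), with the summit 18 bp upstream of the start site. Its sequence is shown beside that of Spsb1 as a window without these letters. The peak runs beyond this window into the gene, and that stretch was not searched. No letters are in capitals.
Nhlrc1 promoter, chr13:47014851-47015100, minus strand: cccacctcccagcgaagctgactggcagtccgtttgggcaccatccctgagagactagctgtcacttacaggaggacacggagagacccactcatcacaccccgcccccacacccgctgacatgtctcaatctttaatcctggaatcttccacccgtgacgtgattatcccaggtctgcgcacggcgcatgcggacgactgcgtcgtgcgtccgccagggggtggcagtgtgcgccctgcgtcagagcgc

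Among peaks with a summit in a protein-coding start-site window, 20 of 74 high-pileup peaks had the core there (27.0%, Wilson 95% interval 18.2 to 38.1%). So did 58 of 426 peaks under 20 (13.6%, 10.7 to 17.2%). Each peak was counted once, and 11 and 51 of these peaks lay in 2 or more windows. Over all 20063 windows of the table, counted singly, 554 held the core (2.76%). Among windows with at least 20 CpG dinucleotides, those without a peak held it in 4.5%. Those at lower peaks held it in 43 of 290 (14.8%, 11.2 to 19.4%) and those at high-pileup peaks in 17 of 55 (30.9%, 20.3 to 44.0%). By pileup the share was 14% at 9 to 11 fragments, 11% at 12 to 14, 16.8% at 15 to 17 and 13.5% at 18 to 19. It was 26.7% at 20 to 22 (8 of 30, 14.2 to 44.4%) and 27.3% at 23 to 60 (12 of 44, 16.3 to 41.8%). Both intervals overlap that at 18 to 19 fragments (5 of 37, 5.91 to 28.0%). These shares are a description of letters on either strand, and no test was made on them.

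**Figure D1:**
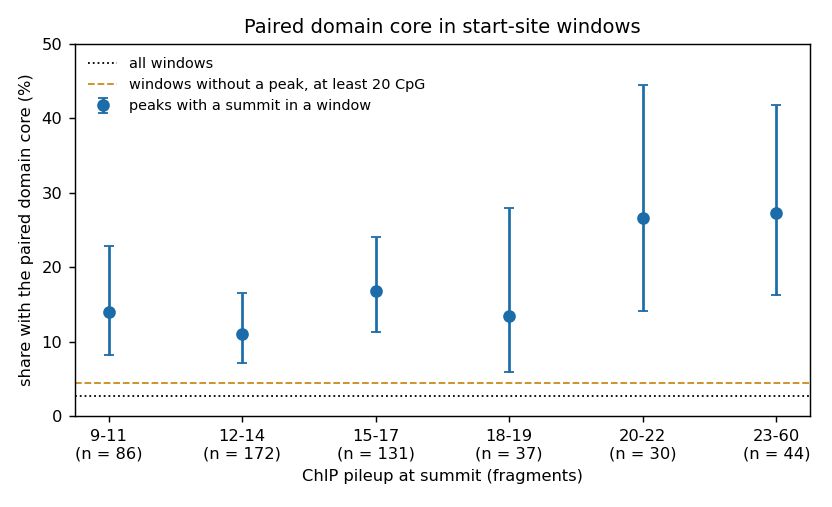
Share of peaks with the paired domain core in a protein-coding start-site window that the summit fell into (y axis, percent) by the pileup of the peak (x axis, ChIP fragments). Points are shares with Wilson 95% intervals. The dotted line marks all 20063 windows (2.76%) and the dashed line marks windows without a peak and with at least 20 CpG (4.5%). The points at 20 to 22 and 23 to 60 fragments, 26.7% and 27.3%, are the highest.

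Summit and core both had to lie in a start-site window of 300 bases, so the distance between them was limited in advance. No expected distance was computed for the core. Over its 21 matches at high-pileup peaks the median distance from the summit was 25 bp (quartiles 15 and 55 bp), and 15 matches lay within 50 bp. At peaks under 20 the median over 60 matches was 39.5 bp (17.75 and 76.5 bp), and 33 lay within 50 bp. The bases beside the core were counted at 58 of the matches at lower peaks, fewer than the 60 above. The base just before the core was G in 12 of 21 matches (57.1%), against 29 of 58 (50.0%) at lower peaks. The base just after it was C in 13 of 21 (61.9%), against 35 of 58 (60.3%). The match with the largest distance, 159 bp, was in the window of Ccng2, a cyclin gene, and lay outside the peak. The letters CGCACTG, the core written backwards and not complemented, served as a check of base composition. They were in the windows of 2 of 74 high-pileup peaks (2.70%), of 6.34% of lower peaks and in 3.68% of all windows. Among windows with at least 20 CpG the shares were 2 of 55 (3.64%) at high-pileup peaks, 7.59% at lower peaks and 6.61% without a peak.

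Other promoter letters were set against windows of like CpG content, because windows at peaks had a median of 24 CpG at high-pileup peaks and 24.5 at lower peaks, against 14 over all windows. The shares that follow are among windows with at least 20 CpG, with 1 window per peak, first for 55 windows at high-pileup peaks, then for 290 at lower peaks, then for 7048 without a peak. This restriction was added after the data were seen. The GC box GGGCGG, bound by SP and KLF factors, was in 78.2%, 82.4% and 81.5%. The CCAAT box, bound by NF-Y, was in 52.7%, 43.8% and 33.1%. The homeodomain letters TAAT were in 50.9%, 45.2% and 24.5%, and the spaced pair TAATNNATT, which overlaps TAAT, in 1.82%, 2.07% and 0.355%. The TAAT share at peaks of either kind was thus above that of CpG-rich windows without a peak.

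Letters of other factors, apart from NRF1, differed less or in the other direction. The NRF1 letters TGCGCA were in 27.3% (17.3 to 40.2%), 16.2% (12.4 to 20.9%) and 17.5%. Their share was thus highest at high-pileup peaks, with an interval that overlaps that of lower peaks. The YY1 letters ATGGCGG were in 12.7%, 10.3% and 9.59%. The ETS family letters CCGGAAG were in 11 of 55, 51 of 290 (17.6%) and 20.5%. The E-box CANNTG, bound by basic helix-loop-helix factors such as MYOD1, was in 45.5%, 55.5% and 56.0%. The AP-1 letters TGANTCA were in 3.64%, 3.45% and 2.74%, and the cAMP response element TGACGTCA in 3.64%, 4.14% and 3.9%. Both strands were searched, and no test was made. Over all windows of any composition the shares were 47.0% for the GC box, 38.1% for CCAAT, 51.5% for TAAT and 68.7% for the E-box.

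Where a high-pileup peak lay near an annotated start site, its summit was mostly on the upstream side. Outside chromosome 18, for which the promoter table has no entries, 104 of 474 high-pileup summits lay within 1000 bp of a protein-coding start site. Of these 88 were upstream (84.6%, 76.5 to 90.3%), against 466 of 681 at peaks under 20 (68.4%, 64.8 to 71.8%). The odds ratio was 2.54 (two-sided Fisher's exact test, p = 0.000501), a comparison chosen after the values had been seen. Counted from the start site, with upstream negative, the median position was -87.5 bp for high-pileup peaks and -68 bp for lower peaks. In both groups about the same share of these summits lay within 250 bp of the start, 78 of 104 (75%) and 501 of 681 (73.6%). The peak covered the start site in 69 of 104 cases (66.3%, 56.8 to 74.7%) and in 322 of 681 (47.3%, 43.6 to 51.0%). High-pileup peaks were also wider, and the part of width in that share was not tested.

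**Figure D2:**
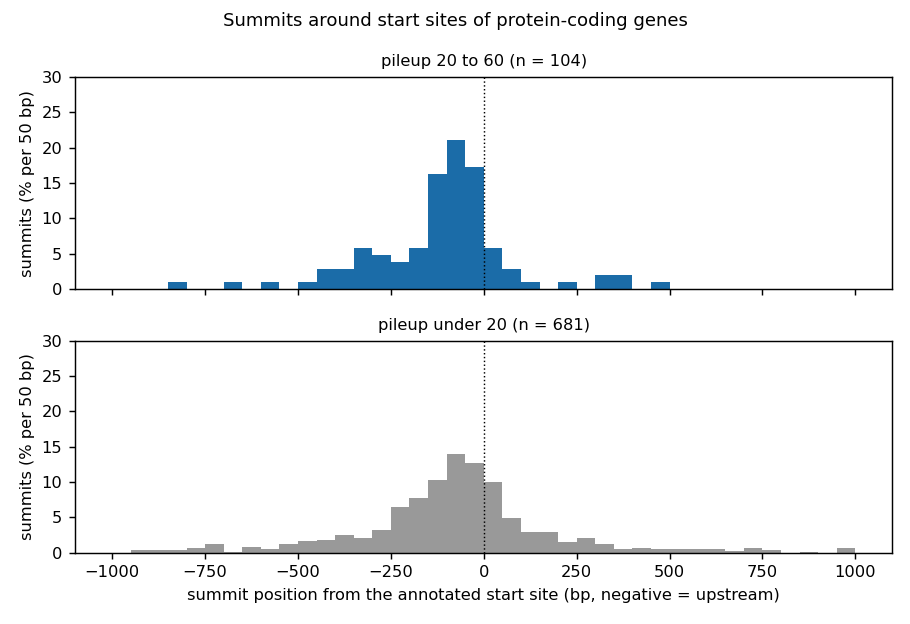
Position of summits relative to the nearest protein-coding start site (x axis, bp, negative values upstream) for high-pileup peaks (top, n = 104) and peaks under 20 (bottom, n = 681). Bars give the percent of summits per 50 bp. High-pileup summits gather just upstream of the start, with 84.6% on that side against 68.4%.

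A high-pileup summit was less often near a gene end and more often far from any gene than a lower summit. Here a gene end is either end of a protein-coding gene, because strand was known for only 80.0% of these genes. Within 1000 bp of an end lay 117 of 490 high-pileup summits (23.9%, 20.3 to 27.8%), against 745 of 2450 (30.4%, 28.6 to 32.3%). The difference was -6.53 percentage points (-10.5 to -2.18), with an odds ratio of 0.718 and adjusted p = 0.00785 (two-sided Fisher's exact test, Benjamini-Hochberg over 4 classes). Outside genes and beyond 50 kb of any end lay 96 (19.6%, 16.3 to 23.3%), against 344 (14%, 12.7 to 15.5%). That difference was 5.55 points (1.98 to 9.52), with an odds ratio of 1.49 and adjusted p = 0.00785 in Fisher's exact test. In the same exact test both calls were lost with a lower limit of 25 fragments (odds ratios 0.833 and 1.18, adjusted p = 0.584 for each) and with a fold of at least 10 in place of pileup (0.892 and 1.25, adjusted p = 0.447 and 0.418). Fisher's exact test also lost the call beyond 50 kb with a lower limit of 18 (1.22, adjusted p = 0.116) and the gene-end call against peaks of 15 to 19 fragments (0.823, adjusted p = 0.268), the latter setting added after the data were seen.

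The other location classes did not pass the test. Inside a gene and beyond 1000 bp of its ends lay 185 high-pileup summits (37.8%, 33.6 to 42.1%), against 885 (36.1%, 34.2 to 38%). The difference was 1.63 points, with an interval from -2.97 to 6.39 and adjusted p = 0.672 in Fisher's exact test. Outside genes but within 50 kb of an end lay 92 (18.8%, 15.6 to 22.5%), against 476 (19.4%, 17.9 to 21.0%), a difference of -0.653 points (-4.25 to 3.34, adjusted p = 0.802 in Fisher's exact test). The typical distance from summit to gene end within each class was 126 bp for gene-end members, 29442 bp for members inside genes, 11072 bp for members outside and 138785 bp for those beyond 50 kb. These are medians.

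The gene-end share was highest at the lowest pileups and changed little within the high-pileup range. It was 37.7% at 9 to 11 fragments, 29.4% at 12 to 13, 31.8% at 14 to 15, 27.3% at 16 to 17 and 23.9% at 18 to 19. Within the high-pileup range it was 21.7% at 20 to 22, 27.3% at 23 to 25, 26.1% at 26 to 30 and 21.4% at 31 to 60. The share beyond 50 kb stood at 23% at 20 to 22 fragments and between 15.7% and 17.4% in the higher bins, against 12% to 16.5% in the bins under 20. The bin of 20 to 22 fragments, with 235 peaks, thus held the highest share beyond 50 kb.

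**Figure D3:**
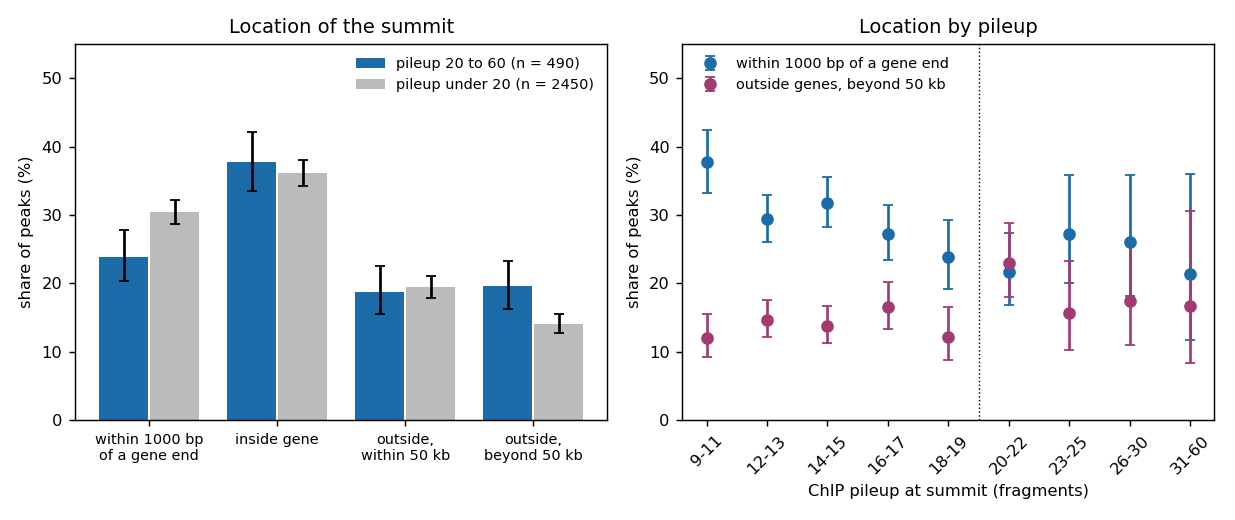
Location of peak summits. Left, percent of peaks in each of 4 location classes for high-pileup peaks (blue, n = 490) and peaks under 20 (grey, n = 2450), with Wilson 95% intervals. Right, the gene-end share and the share beyond 50 kb by pileup, with the lower limit of 20 as a dotted line. The gene-end bar is lower for high-pileup peaks (23.9% against 30.4%) and the bar beyond 50 kb is higher (19.6% against 14%).

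Members at gene ends included promoters shared by neighbouring genes. Nhlrc1, described above, led with 19.2-fold. Dusp23, which encodes a dual-specificity phosphatase, had a peak of 35 fragments and 18.2-fold (12.8 to 25.1), its summit 225 bp upstream of the start site. The peak between Zfp408 and Arhgap1, a zinc finger gene and a gene for a GTPase-activating protein, also had 35 fragments and 18.2-fold, with the summit inside Zfp408, 37 bp from its end, and 104 bp upstream of the Arhgap1 start. Spsb1 and Mphosph8, a gene for a chromodomain protein of the HUSH silencing complex, both reached 17.2-fold, with 33 and 34 fragments. Rabl3 and Gtf2e1, a small GTPase gene and a gene of the general transcription factor TFIIE, shared a peak of 32 fragments and 16.7-fold (11.6 to 23.4). Of the 117 gene-end members, 20 (17.1%) had ends of at least 2 genes within 1000 bp, against 137 (18.4%) of the lower peaks there.

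The highest folds of all lay inside genes. Aopep, which encodes an aminopeptidase, held the leading peak at chr13:63113116-63113599, with 53 fragments over a background of 0.977, 27.3-fold (20.6 to 35.6), 148384 bp from the nearer gene end. A second member of 20 fragments and 10.6-fold began at base 63113654, just beyond the end of the first. Etl4, also called Skt, a gene known for its role in intervertebral disc development, had 49 fragments and 25.3-fold (18.8 to 33.3) at chr2:20642690-20643194. Dpy19l3, a gene for a mannosyltransferase that acts on tryptophan, had 48 fragments and 24.0-fold (17.8 to 31.7), 6713 bp from its nearer end. These peaks had backgrounds of 0.977 to 1.04, near the lowest the caller allows.

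Ksr2, a scaffold gene of the RAF and MAP kinase cascade, followed with 45 fragments and 23.3-fold (17.1 to 31). Adamts2, the protease that trims procollagen, and Mogat1, an acyltransferase of triglyceride synthesis, each had 38 fragments and 19.7-fold (14.1 to 26.9). Fry, a gene for a large scaffold protein, had 42 fragments but a background of 1.25, which gave 19.1-fold (13.9 to 25.7). Of these members inside genes, only Dpy19l3 and Mogat1 lay within 50 kb of a gene end.

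Members far from genes reached similar values. The peak nearest to Gm44812, a predicted gene, lay at chr7:70822226-70822906, 237796 bp from it, with 44 fragments and 22.8-fold (16.7 to 30.4). The peak nearest to Lpar1, the receptor for lysophosphatidic acid, had 41 fragments and 21.2-fold (15.4 to 28.6) at chr4:58663728-58664022, 109863 bp away. A second member of 22 fragments and 10.2-fold lay inside Lpar1. The peak nearest to Cdon, a cell surface protein of myoblast adhesion and hedgehog signalling, had 37 fragments and 19.2-fold (13.7 to 26.3) at chr9:35362140-35362592, 59232 bp away. It was the only member within 100 kb of a peak over 60 fragments, at 56.9 kb. Those nearest to Galr1, a galanin receptor gene, and Celf2, an RNA-binding protein gene, stood at 561122 and 716402 bp with 16.2-fold and 16-fold. Peaks nearest to Adcy2, Dhx40 and Fam78b each had 30 fragments and 15.7-fold.

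Members outside genes but within 50 kb were led by Ncam1 and Jun. Ncam1, a cell adhesion gene whose product marks muscle stem cells and denervated fibres, had 37 fragments and 19.2-fold (13.7 to 26.3) at chr9:49827585-49827962, 28399 bp from the gene. Jun, which encodes part of the AP-1 transcription factor, had 34 fragments and 17.7-fold (12.4 to 24.5), 1050 bp upstream of its start site. Errfi1, a feedback inhibitor of epidermal growth factor receptors, had 29 fragments and 15.2-fold (10.3 to 21.6), with the summit 26235 bp upstream. The predicted gene Gm52030 had the same values at 14533 bp. Nav1, a neuron navigator gene, and the predicted gene Gm46390 each had 28 fragments and 14.7-fold (9.92 to 21.0).

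The rule and the fold rest on the same ChIP counts, so the following values describe the choice and carry no test. The median fold was 11.1 in high-pileup peaks (quartiles 10.2 and 12.7, range 2.59 to 27.3) and 7.08 in lower peaks (6.07 and 8.09, range 3.61 to 10.1). The median −log10 q was 16.7 against 7.33. Many members lay near the lower limit, 235 of 490 at 20 to 22 fragments, while 42 exceeded 30 and 12 had 40 or more. Just inside the limit stood 103 peaks at 20 fragments, and just outside it 111 peaks at 19. Their exact Poisson 95% intervals, 12.2 to 30.9 and 11.4 to 29.7 fragments, nearly coincide. By fold, 116 members were below 10 and 54 lower peaks were at 10 or above.

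High-pileup peaks were also wider, a property of the same signal. Their median width was 311 bp (quartiles 261 and 387, range 172 to 818), against 217 bp (186 and 271, range 172 to 796). The median width went from 191.5 bp at 9 to 11 fragments to 257 bp at 18 to 19, 288 bp at 20 to 22 and 364 bp at 31 to 60, with no step at the limit of 20. By location the members' medians ran from 294 bp outside genes within 50 kb to 318.5 bp beyond 50 kb. The widest member, 818 bp with 26 fragments and 13.7-fold, lay 34.7 kb from Galnt15, a glycosyltransferase gene. It was followed by 772 bp inside Runx1, a haematopoietic transcription factor gene, and 766 bp at the member nearest to Adcy2.

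**Figure D4:**
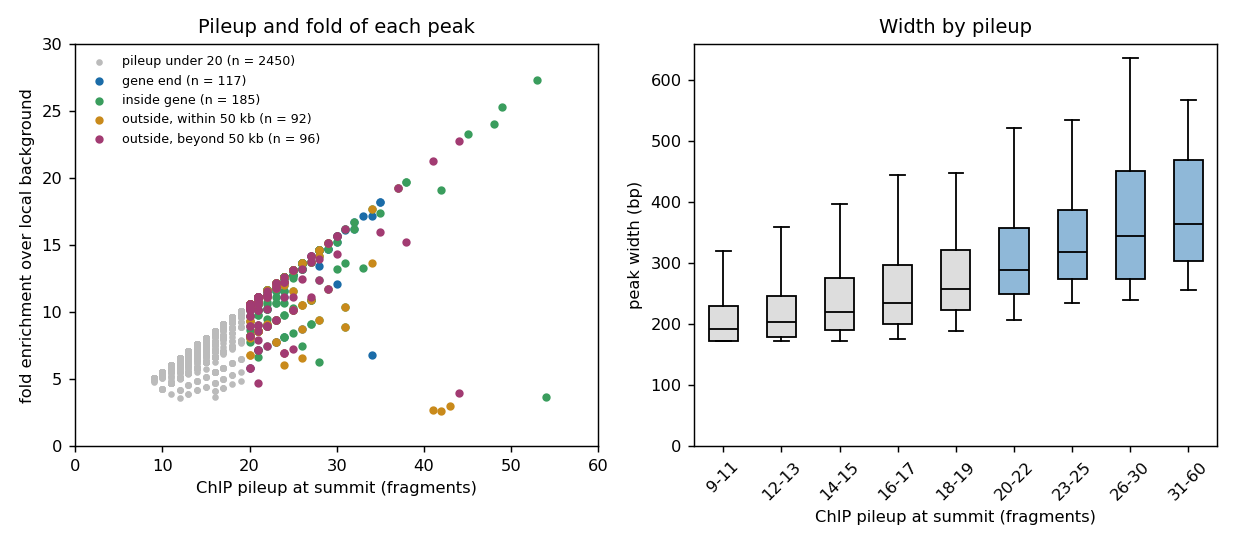
Left, fold enrichment (y axis, ratio to local background) against ChIP pileup (x axis, fragments) for each autosomal peak up to 60 fragments, with high-pileup peaks coloured by location. Right, peak width (y axis, bp) by pileup, with boxes at the quartiles, lines at the median and whiskers at the 5th and 95th percentiles. Many points lie on the line set by the lowest background, and 5 members with deep input fall far under it, at 2.59 to 3.95-fold.

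The local background was similar at the median and reached higher values in high-pileup peaks. The median was 1.04 in high-pileup peaks (quartiles 0.977 and 1.5, highest 15.6) and 1.01 in lower peaks (0.977 and 1.07, highest 3.64). It stood at its lowest allowed value, 0.977, in 193 members (39.4%) and 1110 lower peaks (45.3%). In 5 members the background was 10 or more, and their folds were low although their pileups were among the highest. The peak inside Camk1d had 54 fragments over 14, 3.66-fold, and that nearest to Csf2ra had 42 over 15.6, 2.59-fold. The others, nearest to Mc2r, Apbb1ip and Rimbp3, had 41 to 44 fragments and folds of 2.70 to 3.95. The 18 autosomal peaks above 60 fragments, left out by the rule, had backgrounds of 16.6 to 179 and folds of 1.42 to 5.81, and 13 of them (72.2%) lay beyond 50 kb of a gene. Those 13 included a run of 4 neighbouring summits nearest to Lrrc4c and another of 4 nearest to Gm2244, so they are not all separate loci.

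Of the 490 members, 332 lay within 50 kb of a protein-coding gene end and were given to the gene whose end was nearest. They named 324 of 20560 genes (1.58%), while peaks under 20 named 1581 (7.69%). Both kinds of peak were assigned to 91 genes, 28.1% of the 324 and 5.76% of the 1581. Of the 158 members left unassigned, 62 lay inside a gene and 96 outside. Over all 1814 genes with an assigned peak, 17.9% had a high-pileup one.

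Genes known from muscle stem cells had a larger share with a peak of either kind than all genes had. Of the 35 in the list, 8 had a high-pileup peak (22.9%, 12.1 to 39.0%), against 1.58% of all genes. A lower peak was assigned to 15 (42.9%), against 7.69% of all genes. Of the 17 with either, 47.1% had a high-pileup one, against 17.9% over all genes with a peak. Besides Ncam1 the 8 genes with a high-pileup peak were Pax7, Dbx1, Sdc4, Asb5, Cav1, Itgb1 and Vcam1. The median of the highest pileup over the 17 genes was 17 fragments, against 15 over all genes with a peak. The list was chosen with earlier results of these data known, so its count is not independent evidence.

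Pax7 itself held a member at chr4:139772599-139772954, with 28 fragments over a background of 0.977, 14.7-fold (9.92 to 21.0). It lay inside the gene, 60213 bp downstream of the start site. A lower peak of 15 fragments and 8.09-fold lay 11914 bp from the nearer end. Dbx1, a homeobox gene of neural progenitors, had 28 fragments and 14.2-fold (9.61 to 20.3), 31696 bp upstream of its start. Ncam1 had a second member of 21 fragments and 10.6-fold, 17391 bp from the gene.

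The remaining genes of the list had 20 to 25 fragments. Sdc4, the heparan sulfate proteoglycan syndecan-4, had 25 fragments and 11.5-fold (7.63 to 16.8) inside the gene. Cav1, the caveolae protein, had 22 fragments and 11.6-fold (7.48 to 17.4), 1812 bp downstream of its start site. Vcam1, an adhesion molecule used to sort these cells, had 20 fragments and 10.6-fold (6.69 to 16.1) inside the gene. Itgb1, the integrin beta-1 chain, had 20 fragments over a higher background of 1.56, hence 8.20-fold (5.16 to 12.5). Asb5, an ankyrin repeat gene expressed in muscle, had 24 fragments and 12.3-fold (8.03 to 18), 1773 bp upstream of its start.

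Myogenic regulatory genes other than Pax7 had no assigned member. Myod1, the muscle determination factor, had one 38.6 kb away at chr7:46337598-46337939, with 23 fragments and 11.8-fold (7.64 to 17.4), but the end of Otog was nearer. The nearest member to Pax3, the closest relative of Pax7, was 335 kb away and lay in Mogat1. For Myog, Myf6 and Myf5 the nearest members were 1407, 3425 and 3433 kb away. Lower peaks were closer to these genes, at 27.5 kb from Myod1, 141 kb from Pax3, 168 kb from Myf6, 176 kb from Myf5 and 265 kb from Myog. Of 33 autosomal genes of myogenic differentiation, none had a high-pileup peak assigned (0%). The Wilson interval reaches 10.4% and so holds the 1.58% over all genes. A lower peak was assigned to 4 of them (12.1%), against 7.69% of all genes.

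Homeobox and paired box genes had 5 of 40 with a high-pileup peak (12.5%, 5.46 to 26.1%), against 1.58% of all genes. A lower peak was assigned to 12 (30%), against 7.69% of all genes. This list too was chosen with earlier results of these data known. Besides Pax7 and Dbx1, the 5 genes included Prrx1, a mesenchymal homeobox gene, and Tshz3, a zinc finger homeobox gene, with 23 fragments and 11.8-fold (7.64 to 17.4). Prrx1 had 2 members, the first with 24 fragments and 12.6-fold (8.28 to 18.6) outside the gene and the second with 20 fragments and 10.6-fold inside it.

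Counts in the signalling lists were small, and are read against the 1.58% of all genes with a high-pileup peak. In the TGF-beta and BMP list it was 3 of 38 genes (7.89%, 2.72 to 20.8%), namely the coreceptor gene Tgfbr3 (26 fragments, 13.2-fold), the effector Smad3 (24 fragments, 12.3-fold) and the inhibitor Smad6 (22 fragments, 9.13-fold). In the Notch list it was 2 of 30 (6.67%, 1.85 to 21.3%), the ubiquitin ligase gene Dtx4 with 27 fragments and 10.9-fold and the coactivator gene Maml3 with 21 and 10.8-fold. Calcium and cAMP genes also gave 2 of 30 (6.67%), Nfatc2 with 27 fragments and 13.7-fold and Rcan1 with 21 and 10.2-fold, the first a transcription factor activated by calcineurin and the second an inhibitor of calcineurin. Growth factor and receptor tyrosine kinase genes gave 1 of 31, the insulin-like growth factor gene Igf1 with 20 fragments and 9.33-fold. Wnt pathway genes gave 0 of 38, with an interval that reaches 9.18% and so holds the share over all genes, and 5 had a lower peak.

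Immediate early genes, which respond quickly to growth factors and stress, had lower peaks in 10 of 35 and high-pileup peaks in 2 (5.71%, 1.58 to 18.6%). Of the 12 with either, 16.7% had a high-pileup peak, near the 17.9% over all genes with a peak. These were Jun and Socs3, a cytokine feedback inhibitor with 20 fragments and 10.6-fold (6.69 to 16.1) at 33623 bp. Extracellular matrix and adhesion genes had lower peaks in 13 of 38 and high-pileup peaks in 2, Ncam1 and Itgb1. Chromatin regulators had lower peaks in 8 of 33 and a high-pileup peak in 1, the histone deacetylase gene Hdac5, with 29 fragments and 14.7-fold (10 to 20.9), 92 bp upstream of its start site. Ribosomal and housekeeping genes had 1 of 28, Rps23, with 20 fragments and 8.20-fold. Cell cycle genes had 0 of 39, with an interval that reaches 8.97% and holds the share over all genes, and lower peaks in 8. In each list of this paragraph the share with a lower peak was also above the 7.69% of all genes. It ran from 14.3% (ribosomal and housekeeping) to 34.2% (extracellular matrix and adhesion). In all, 27 of the 500 autosomal genes of the 17 lists had a high-pileup peak (5.4%), against 1.58% of all genes. The lists were chosen with earlier results of these data known, so that difference is not independent evidence.

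The labelled cell type was set against markers of other cells, although a peak is not a measure of expression. Over all genes, 1.58% had a high-pileup peak and 7.69% a lower one. A count of 0 in lists this small therefore cannot show that a cell type was absent. High-pileup peaks were assigned to 3 of 8 muscle stem cell markers (Pax7, Vcam1 and Sdc4) and lower peaks to 4 (Pax7, Calcr, Sdc4 and Chrdl2). Among the endothelial markers 2 of 5 had a high-pileup peak and 3 had a lower one (Pecam1, Cdh5 and Erg). Tek, the angiopoietin receptor, had 24 fragments and 11.6-fold (7.57 to 17) at 130 bp from its end and a second member of 22 fragments and 10.7-fold inside the gene. Erg, an ETS factor of endothelium, had 20 fragments and 8.20-fold. Fibro-adipogenic, leukocyte, myofibre and Schwann markers had 0 of 4, 0 of 4, 0 of 4 and 0 of 3, and lower peaks at Col1a1 (fibro-adipogenic) and Erbb3 (Schwann). In the wider lists, Rgs5, a pericyte gene, had 28 fragments and 14.7-fold and Cebpa, an adipogenic transcription factor, 22 fragments and 11.6-fold, while 0 of 18 leukocyte genes had a peak of either kind. Whether other cells in the sort contributed fragments was not tested.

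A pair of members was assigned to each of 8 genes. Besides Ncam1, Prrx1 and Tek these were Ido2, Ntn4, Slc7a8, Wee1 and Zfp366. In Slc7a8, an amino acid transporter gene, the members had 26 and 28 fragments but folds of 10.5 and 6.25, so the member with the higher pileup had the lower fold. The same was seen at Wee1, the kinase that restrains entry into mitosis, with 20 fragments at 10.6-fold and 24 at 6.07-fold. Ido2, an enzyme gene of tryptophan breakdown, had 22 and 23 fragments at 11.3-fold and 11.1-fold. Ntn4, a netrin gene, had 21 and 20 fragments and Zfp366, a zinc finger gene, 20 at both. Further away, 4 unassigned members of 21 to 23 fragments were nearest to Mctp2, at 235 to 529 kb.

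High-pileup peaks stood alone about as often as lower peaks. Another summit lay within 10 kb of 78 members (15.9%, 12.9 to 19.4%) and of 346 lower peaks (14.1%, 12.8 to 15.6%). In 68 members the neighbours included a lower peak, and only 12 members shared a run of neighbouring summits with another member. Genes for long non-coding RNAs spanned 57 members (11.6%) and 301 lower peaks (12.3%). Among members beyond 50 kb they spanned 25 of 96 (26%, 18.3 to 35.6%), against 77 of 344 (22.4%, 18.3 to 27.1%).

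The share of peaks with a high pileup varied between chromosomes. It was highest on chromosome 7, with 47 of 186 peaks (25.3%, 19.6 to 32.0%), and lowest on chromosome 6, with 11 of 136 (8.09%, 4.58 to 13.9%). Chromosome 5 followed with 19 of 176 (10.8%). The interval of each of these chromosomes lay to one side of the share over all autosomes, 16.6%, which was part of a description over 19 chromosomes with no test.

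**Figure D5:**
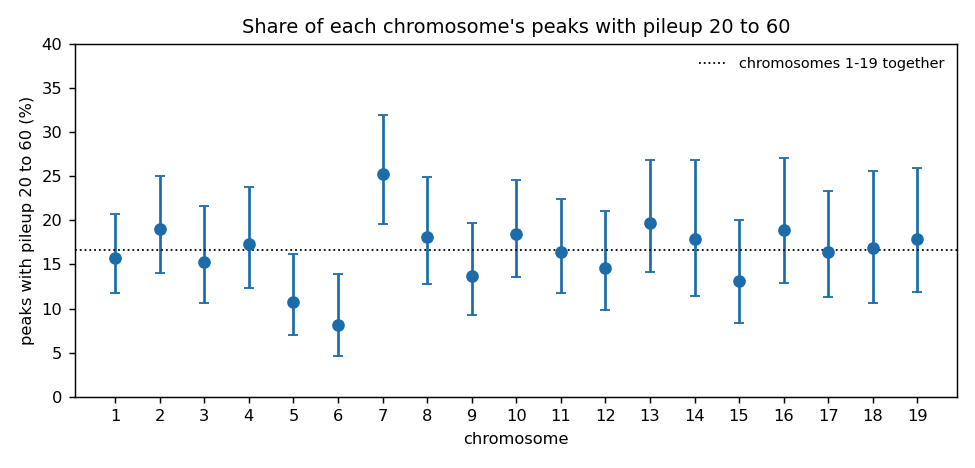
Percent of each autosome's peaks with a pileup of 20 to 60 fragments (y axis) by chromosome (x axis), with Wilson 95% intervals and the share over all autosomes as a dotted line (16.6%). Chromosome 7 (25.3%) lies above the line and chromosomes 5 and 6 (10.8% and 8.09%) below it.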

How the data were processed

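ChIP and input DNA of sorted muscle stem cells were sequenced as single-end tags of 50 bp, per the labels' protocols. The submitters' processing notes name the build GRCm38 and the tools MACS2 2.1.1, HISAT2 and bcl2fastq 2.16. Per the file headers, MACS 2.1.1.20160309 called the peaks on 1 library against 1 library with fragments of 172 bp and a largest q-value of 0.01. The input was multiplied by 0.520 to match the ChIP library, also per the file headers. Pileup, as deposited, is coverage, or the count of ChIP fragments that span the summit. The fold enrichment that the authors deposited is a ratio, and the −log10 of the p-value and that of the q-value, both deposited, are the caller's. All values per peak are the authors'.

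The local background was recovered from the deposited fold and pileup. Genes and promoter windows came from RefSeq tables of GRCm38.p6. The promoter table covers 80.0% of 20560 protein-coding genes and none of chromosome 18, so either gene end was used for location, in place of the start site. No genome sequence was used here, so peaks away from promoters were not searched for motifs. Gene entries that start before base 3000000, the coordinates of scaffolds or patches (105 protein-coding), were left out. Each summit was given to the gene whose end was nearest, up to 50 kb away. Location was tested with Fisher's exact test, with Benjamini-Hochberg adjustment over 4 classes and a limit of 0.05, and these p-values describe the peak list of these 2 libraries. Shares carry Wilson intervals. Scripts used Python 3.11.15, pandas 2.3.3, NumPy 2.4.6, SciPy 1.17.1 and matplotlib 3.10.9 and were tested on simulated data.

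The high-pileup peaks and the gene lists were chosen with earlier results of these data known. The text names the 10 members with the highest fold, the 6 highest in each location class, up to 6 genes per list, genes with at least 2 assigned members, and Pax7, Pax3, Myf5, Myod1, Myog and Myf6. A result that this rule names is not reported here. Vcam1, genes at cores, the widest members, members with deep input, the lower peaks at Pax7, the second members at Aopep and Lpar1, and members nearest to Mctp2 were chosen after their values were seen. Alternatives covered the pileup limits, gene-end window, overlap, assignment distance, deep background, fold, neighbouring summits and q-values. The start-site analysis, its alternatives and the comparison with 15 to 19 fragments were added after the data were seen.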

Additional observations from a re-analysis of the deposited data

Results flagged for a closer look

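Outside the autosomes, which the comparisons did not use, 2 deposited peaks also had a pileup of 20 to 60 fragments. They drew attention because the signal lies in peaks no comparison above used, above a count of 0. One, on the X chromosome from base 11747479 to 11747735, had 20 fragments over a background of 0.977, 10.6-fold. The other, on an unplaced scaffold, had 54 fragments over a background of 24.3, 2.17-fold.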

How the results depend on the processing

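The lower odds of a high-pileup summit at a gene end and the higher odds beyond 50 kb kept their direction under all 12 alternatives, with odds ratios of 0.689 to 0.892 and 1.18 to 1.67, and each passed the test under 9 of them. With a lower limit of 18 fragments, the odds ratio beyond 50 kb was 1.22 (adjusted p = 0.116 in Fisher's exact test) and that inside genes was 1.22 and passed (adjusted p = 0.0409). With a lower limit of 25, the gene-end ratio was 0.833 and the ratio beyond 50 kb 1.18, and neither passed Fisher's exact test (adjusted p = 0.584 for both). With a fold of at least 10 in place of pileup they were 0.892 and 1.25, and neither passed the exact test (adjusted p = 0.447 and 0.418). Against peaks of 15 to 19 fragments, added after the data were seen, the gene-end ratio was 0.823 (adjusted p = 0.268) and the ratio inside genes turned to 0.980 (adjusted p = 0.865), while beyond 50 kb it was 1.48 and passed the exact test (adjusted p = 0.0331). The cause was not tested. The ratio outside genes within 50 kb ranged from 0.838 to 0.998 and passed under none.

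The upstream odds ratio at start sites ranged from 1.84 to 3.14 over 5 added alternatives, with Fisher p from 0.000628 to 0.0271. The share of high-pileup peaks with the core in a start-site window ranged from 22.5% to 30.9% over 4 added alternatives. The number of genes was 504 with a lower limit of 18, 114 with a limit of 25 and 209 with assignment within 10 kb, against 324. The median width was 292 bp at a limit of 18 and 344 bp at 25, against 311 bp. No paired analysis was possible because each group has 1 library. Depth limits the choice of members, since the counting intervals of 19 and 20 fragments overlap almost wholly, and specific and unspecific precipitation cannot be told apart, because ChIP from untagged cells was not analysed here.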
